A study of Mus musculus with 6 samples.

Results

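Neuropeptide Y (NPY) and 3 of its receptors were followed in tissue enriched for the dentate gyrus (DG) of 6 mice, by the genes Npy, Npy1r, Npy2r and Npy5r. The members were all array probes that the platform annotation assigns to one of these genes, 5 of the 45281 probes on the array, with a single probe for each gene except Npy5r, which had 2. All 5 probes were detected on all 6 arrays. The mice were male, of the strain labelled C57/Black6J, 6 to 8 weeks old, and carried no reported transgene or mutation. In 3 of them, repeated low doses of kainic acid, a glutamate receptor agonist, were injected into the peritoneum until status epilepticus (KA-SE) developed, and the other 3 received saline by the same route. Only animals with sustained convulsive seizures entered the KA-SE group, and the right DG was taken 72 h after the injections, with 1 array per mouse.

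NPY is a peptide transmitter that GABAergic interneurons of the hilus release together with GABA, and one for which granule cells and their mossy fibres are known to become a source after seizures in rodents. It acts on receptors that couple to inhibitory Gi/o proteins, which lower adenylyl cyclase activity, open inwardly rectifying potassium channels and close presynaptic calcium channels. In the hippocampus, the Y1 receptor lies mainly on granule cell dendrites and the Y2 receptor on presynaptic terminals, where it restrains glutamate release, while Y5 is also linked to the anticonvulsant action of the peptide.

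The sequences upstream of the annotated starts are shown for Npy and for the receptor genes Npy1r and Npy5r, because the ligand gene and Npy1r had the lowest p-values among the members, in opposite directions, and because Npy1r and Npy5r are neighbours on chromosome 8. They lie on opposite strands, with 0 other annotated genes between them. Each window holds the 250 bases before the start in the RefSeq table for GRCm38.p6, written 5′ to 3′ on the strand of the gene, and capitals mark a match to a searched motif. The windows are chr6:49822460-49822709 on the plus strand for Npy, chr8:66697172-66697421 on the plus strand for Npy1r and chr8:66688095-66688344 on the minus strand for Npy5r. The windows of Npy1r and Npy2r lie inside the annotated gene, because other transcript models of these genes start further upstream.
Npy: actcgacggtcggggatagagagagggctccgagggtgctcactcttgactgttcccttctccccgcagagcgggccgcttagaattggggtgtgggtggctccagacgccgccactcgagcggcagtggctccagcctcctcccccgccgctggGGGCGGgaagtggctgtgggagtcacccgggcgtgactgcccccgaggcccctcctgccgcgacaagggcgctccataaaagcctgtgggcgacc
Npy1r: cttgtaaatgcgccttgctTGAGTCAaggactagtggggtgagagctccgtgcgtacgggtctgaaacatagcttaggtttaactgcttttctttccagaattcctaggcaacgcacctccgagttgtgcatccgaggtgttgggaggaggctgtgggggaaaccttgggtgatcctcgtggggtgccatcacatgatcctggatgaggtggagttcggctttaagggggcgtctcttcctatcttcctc
Npy5r: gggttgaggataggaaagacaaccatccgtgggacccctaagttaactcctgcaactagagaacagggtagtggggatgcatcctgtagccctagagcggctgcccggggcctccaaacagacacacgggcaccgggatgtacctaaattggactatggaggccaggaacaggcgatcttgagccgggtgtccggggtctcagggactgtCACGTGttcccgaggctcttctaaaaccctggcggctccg

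Letters were searched on both strands for the GC box (GGGCGG), the cAMP response element (TGACGTCA) and its core (TGACG, which lies within the full element), the AP-1 site (TGANTCA), the E-box (CACGTG) and the TATA box (TATAAA). The Npy window held 1 GC box, at -95 from the start, a match that 32.7% of all 32817 windows of this length also held. The Npy1r window held 1 AP-1 match, at -231 (6.75% of windows), and the Npy5r window held 1 E-box, at -40 (6.02%). The Npy2r window, on chromosome 3, held 1 GC box at -62. The GC content was 69.2% for Npy, 53.6% for Npy1r, 56.8% for Npy2r and 58.8% for Npy5r, against a median of 52.4% over all windows. Motif matches are given as a description of these letters only.

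The ligand gene was measured first. Npy, which encodes the precursor of the peptide, had raw intensities of 1405, 1308 and 2010 in saline replicates 1, 2 and 3 and of 1456, 2403 and 3383 in KA-SE replicates 1, 2 and 3. After background correction and quantile normalization, its log2 signals were 10.37, 10.62 and 10.48 in saline and 10.56, 11.40 and 11.76 in KA-SE. The array of KA-SE replicate 1 thus lay within the saline range, while those of KA-SE replicates 2 and 3 lay above every saline array, and the groups overlapped. Relative to the saline mean, the KA-SE signals of Npy were 1.05-fold, 1.88-fold and 2.41-fold. The mean log2 signal was 10.49 ± 0.125 in saline (SD over 3 mice) and 11.24 ± 0.615 in KA-SE, so the spread of the KA-SE group was wider than that of the saline group. The log2 change was 0.75 ± 0.247 (SE, 95% interval 0.20 to 1.30), or 1.68-fold, which did not pass the threshold over all tested probes (limma adjusted p = 0.38). The exact permutation test, two-sided over the 20 assignments of arrays to groups, gave p = 0.2, where 0.1 is the smallest value it can give.

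**Figure D1:**
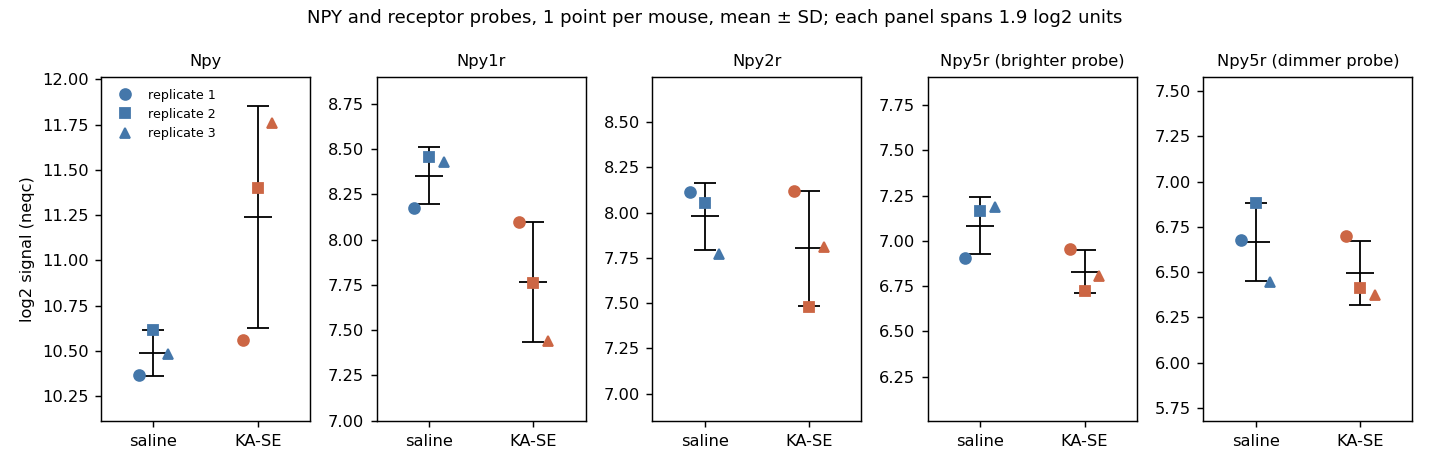
Log2 signal (y axis, after background correction and quantile normalization) of the 5 member probes in saline and KA-SE mice, with 1 point per mouse, the marker shape giving the replicate and bars giving the mean ± SD of 3 mice. Only for Npy1r do the points of both groups not overlap, and for Npy the KA-SE replicates 2 and 3 stand at 11.40 and 11.76 while KA-SE replicate 1 stands at 10.56.

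The call of Npy depended on a single array. Without KA-SE replicate 1, the log2 change was 1.10 ± 0.148 with an adjusted p of 0.0292 in limma. Omission of KA-SE replicate 3 gave 0.49 ± 0.218 (adjusted p = 0.522), and omission of KA-SE replicate 2 gave 0.67 ± 0.283 (adjusted p = 0.647). Omission of a saline array gave values from 0.69 to 0.81. Npy was therefore higher in KA-SE in each of these 6 fits, by an amount that differed with the mice included.

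Of the receptors, the gene of the postsynaptic Y1 receptor differed most between the groups. Npy1r had raw intensities of 325, 310 and 518 in saline and of 289, 210 and 191 in KA-SE, and log2 signals of 8.17, 8.46 and 8.43 in saline against 8.10, 7.76 and 7.44 in KA-SE. Every KA-SE array lay below every saline array, although KA-SE replicate 1 was only just below saline replicate 1. Groups that did not overlap, with KA-SE lower, were found for 5.75% of all tested probes. The KA-SE signals were 1.19-fold, 1.51-fold and 1.89-fold below the saline mean, with a log2 change of -0.59 ± 0.167 (SE, 95% interval -0.96 to -0.22). This did not pass over all tested probes either (limma adjusted p = 0.281), and the exact permutation p was 0.1, the smallest possible here. The change was -0.76 (adjusted p = 0.106) when KA-SE replicate 1 was omitted and -0.43 (adjusted p = 0.404) when KA-SE replicate 3 was.

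Npy2r, which encodes the presynaptic Y2 receptor, had log2 signals of 8.12, 8.05 and 7.77 in saline and of 8.12, 7.48 and 7.81 in KA-SE. KA-SE replicate 1 was level with the highest saline array, KA-SE replicate 2 was below all saline arrays and KA-SE replicate 3 fell among them. The log2 change was -0.18 ± 0.167 (95% interval -0.55 to 0.19, limma adjusted p = 0.908, exact permutation p = 0.7). Omission of KA-SE replicate 1 gave -0.34, and omission of KA-SE replicate 2 gave -0.02. The interval includes 0 and also changes as large as that of Npy5r, so no difference was detectable with 3 mice per group.

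Npy5r encodes the Y5 receptor. Its brighter probe had log2 signals of 6.90, 7.16 and 7.19 in saline and of 6.96, 6.72 and 6.81 in KA-SE. KA-SE replicates 2 and 3 were below all saline arrays, while KA-SE replicate 1 was above saline replicate 1. The log2 change was -0.25 ± 0.125 (95% interval -0.53 to 0.02, limma adjusted p = 0.668, exact permutation p = 0.2). The dimmer probe read 6.67, 6.88 and 6.44 in saline and 6.70, 6.41 and 6.37 in KA-SE, with a change of -0.17 ± 0.144 (adjusted p = 0.885, exact permutation p = 0.3). Both probes had negative changes, but the saline arrays did not keep the same order between them, as saline replicate 3 was the highest by the brighter probe and the lowest by the dimmer one.

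**Figure D2:**
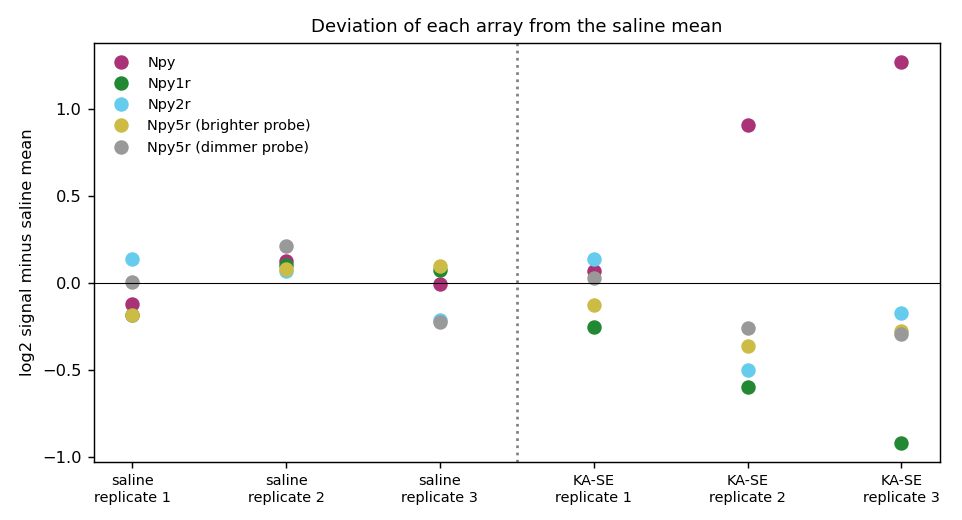
Difference of each array's log2 signal from the saline mean of the same probe (y axis), for the 5 member probes on the 6 arrays (x axis). On KA-SE replicate 1 the probes lie between -0.25 and 0.14, whereas on KA-SE replicates 2 and 3 Npy stands at 0.91 and 1.27 and every receptor probe lies below 0.

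The deviations from the saline mean show how the members varied together on single arrays. On KA-SE replicate 1 they were 0.07 for Npy, -0.25 for Npy1r, 0.14 for Npy2r, and -0.13 and 0.03 for the Npy5r probes. The corresponding values were 0.91, -0.60, -0.50, -0.36 and -0.26 on KA-SE replicate 2, and 1.27, -0.92, -0.17, -0.28 and -0.29 on KA-SE replicate 3. The mouse of KA-SE replicate 1 was therefore the closest to saline of the KA-SE group for Npy and for each receptor probe. Saline deviations had no such arrangement and stayed between -0.22 and 0.21.

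Whether the change of the ligand gene differed from that of each receptor gene was tested on the difference of both log2 signals within an array, where only the shift between groups can be interpreted. For Npy minus Npy1r this difference was 2.19, 2.16 and 2.05 in saline and 2.46, 3.64 and 4.32 in KA-SE, a shift of 1.34. Every KA-SE array was above every saline array. The shift was 1.01 against the brighter probe of Npy5r, also without overlap, and 0.93 against Npy2r, with overlap. The exact permutation p was 0.1, 0.1 and 0.3, respectively. None of these 3 comparisons could have passed, since 0.1 is the smallest p that 3 mice per group allow. Against the dimmer probe of Npy5r the groups overlapped. Saline replicate 3 read 10.48 for Npy and 6.44 for that probe, and KA-SE replicate 1 read 10.56 and 6.70. How many other probes would separate the groups in the same way was not counted.

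**Figure D3:**
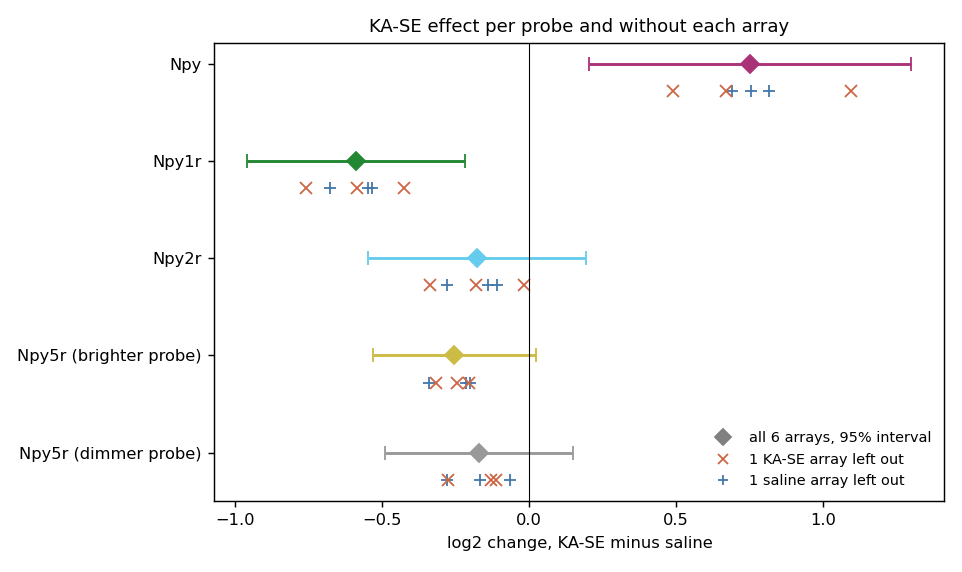
Log2 change between KA-SE and saline (x axis) for each member probe (y axis), where diamonds with bars give the estimate from all 6 arrays with its 95% interval, and crosses and plus signs give the estimates without 1 KA-SE or 1 saline array. The intervals of Npy (0.20 to 1.30) and Npy1r (-0.96 to -0.22) do not reach 0, while those of Npy2r and Npy5r do. All intervals draw on the variance of all tested probes as well as on that of the probe shown. Without any single array no estimate changes its sign.

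These values were read against the whole array. Of 21226 tested probes, 49 passed an adjusted p of 0.05 in limma, or 0.231%, and 0 of the 5 member probes were among them. This number was 5, 5 and 4 without saline replicates 1, 2 and 3, and 85, 5 and 4 without KA-SE replicates 1, 2 and 3. At an unadjusted p under 0.05, 1 member probe (Npy) was higher in KA-SE, as were 5.02% of all tested probes, and 1 (Npy1r) was lower, as were 3.11%. By p-value Npy ranked 665 and Npy1r 384 among the 21226. Between 48.1% and 50.3% of the probes were detected on each array, and precision is limited by having only 6 arrays. As tissue was measured in bulk, fewer cells of a type and less RNA per cell cannot be told apart.

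Other genes of the pathway were compared from lists. The remaining family members are the ligand genes Pyy (peptide YY) and Ppy (pancreatic polypeptide) and the receptor genes Npy4r and Npy6r. Each had 1 probe and none was detected on any of the 6 arrays, so 0 of 4 were tested. Among genes for the processing and breakdown of peptides, 7 of 10 were tested and 0 passed in either direction, with a median log2 change of 0.05 against -0.01 over all tested probes. The members with the smallest p were Ide, insulin-degrading enzyme (0.11 ± 0.12), Pcsk1n, the inhibitor of prohormone convertase (-0.11 ± 0.138), Cpe, carboxypeptidase E (0.08 ± 0.123), and Scg5, the convertase chaperone (-0.05 ± 0.11). Dpp4, whose product cuts NPY to a form that no longer binds Y1, had a change of 0.06 ± 0.155. It was the dimmest of the 7 tested genes (mean log2 signal 4.91 in saline and 4.97 in KA-SE) and was detected on 5 of the 6 arrays. By their brightest probes, the changes of these 7 genes ranged from -0.11 to 0.11, and the other tested probes of Ide stood at 0.38 ± 0.279 and -0.09 ± 0.158.

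For the Gi/o proteins and effectors through which the receptors act, 23 of 25 genes were tested, 0 passed, and the median log2 change was -0.03 with 8 values above and 15 below 0. Rgs4, which speeds the inactivation of Gi/o proteins, had a change of 0.29 ± 0.12, and Adcy1, a calcium-stimulated adenylyl cyclase, had one of -0.29 ± 0.122 (limma adjusted p = 0.55 and 0.555), but the second tested probe of Adcy1 had the opposite sign (0.07 ± 0.137). Gnai2, a Gi alpha subunit, stood at 0.22 ± 0.115 and Gng4, a gamma subunit, at -0.22 ± 0.125. The second tested probe of Gnai2 had a smaller change, 0.07 ± 0.137. The inwardly rectifying potassium channel genes Kcnj3, Kcnj6 and Kcnj9 had changes of -0.09, -0.06 and 0.06. The presynaptic calcium channel genes Cacna1a and Cacna1b stood at 0.01 and 0.04 by their brightest probes, whereas their other tested probes were below 0, at -0.17 for Cacna1a and at -0.20 and -0.12 for Cacna1b. The 4 other probes of Kcnj6 ranged from -0.27 to 0.01. The probes of these genes thus differed in sign, and no direction is given for them.

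Peptides and secreted factors that granule cells regulate with activity were compared next, with 12 of 13 genes tested, 0 past the threshold and a median log2 change of 0.24. Gal, which encodes galanin, had the smallest p in this list, with a change of 1.25 ± 0.237 (limma adjusted p = 0.0842) and groups that did not overlap. Groups that did not overlap, with KA-SE higher, were found for 1556 of all 21226 tested probes. The pentraxin gene Nptx2 had a change of 0.52 ± 0.135, Scg2, the precursor of secretoneurin, one of 0.34 ± 0.114, and Cck, cholecystokinin, one of -0.40 ± 0.114 (adjusted p = 0.236, 0.402 and 0.281). Relative to the saline mean, the list averaged 0.16 for KA-SE replicate 1, 0.37 for replicate 2 and 0.32 for replicate 3.

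**Figure D4:**
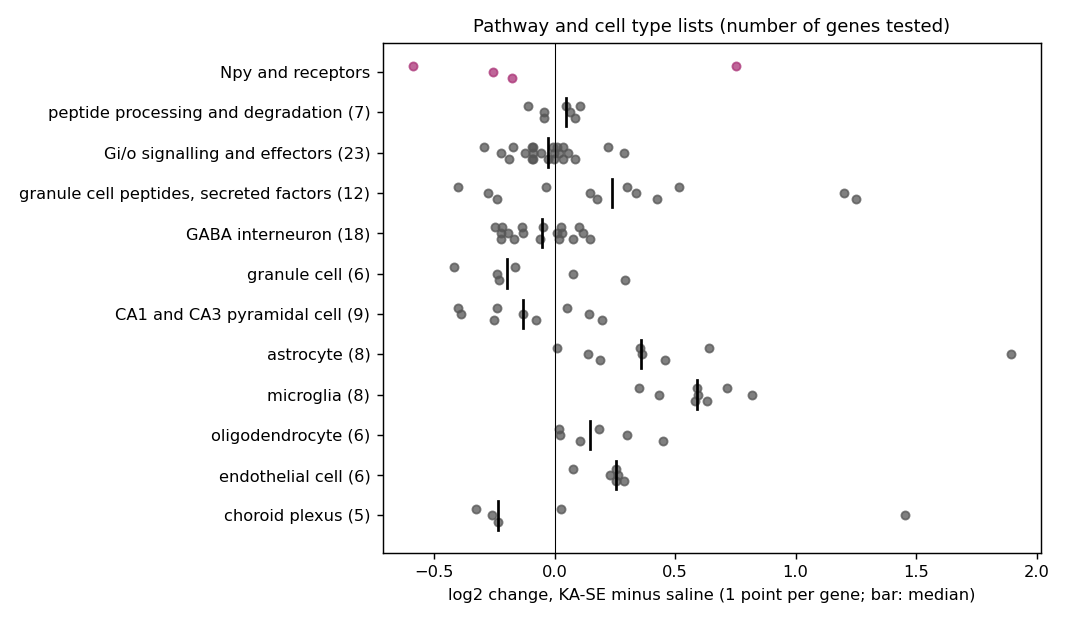
Log2 change between KA-SE and saline (x axis) for the 4 member genes, by their brightest probe, and for the tested genes of 11 lists (y axis, number of genes in brackets), with 1 point per gene and a bar at the median of each list. The medians are 0.05 for peptide processing, -0.03 for Gi/o signalling, -0.05 for GABA interneuron, 0.36 for astrocyte and 0.59 for microglia genes.

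Markers of the cells that make or receive NPY were given beside these values. Of 20 genes of GABA interneurons, the resting source of the peptide, 18 were tested and detected on all arrays, 0 passed and the median log2 change was -0.05. Of these 18 genes, 8 had values above 0 and 10 below, from -0.25 to 0.15. Their summed signal ranged from 21929 to 23344 in saline and from 20317 to 22153 in KA-SE. Sst, the peptide with which Npy is often co-expressed in hilar interneurons, had a change of -0.22 ± 0.11 (limma adjusted p = 0.67), Lhx6, a transcription factor of interneurons, one of -0.22 ± 0.131, Pvalb, parvalbumin, one of -0.22 ± 0.132, and Nos1, neuronal nitric oxide synthase, one of -0.25 ± 0.161. Gad1 and Gad2, the GABA-synthesizing enzymes, stood at 0.03 and 0.08, and the other probes of Gad1 at -0.01 and 0.11. The value of Npy thus differed in sign from that of Sst, and whether both changes differ was not tested.

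The granule cell list had 6 of 11 genes tested, all detected on every array, among them Prox1, the transcription factor of granule cell identity, and C1ql2, a synaptic organizer of mossy fibres. Its median log2 change was -0.20 with 0 past the threshold, 2 genes above 0 and 4 below. The summed signal of the list ranged from 4702 to 5192 in saline and from 4963 to 6264 in KA-SE. This sum was taken on the linear scale, and C1ql2, the brightest of the 6 genes, weighs most in it (mean log2 signal 11.99 in saline and 12.28 in KA-SE). Lct stood at -0.42 ± 0.183, C1ql2 at 0.29 ± 0.129, Trpc6, a cation channel gene, at -0.24 ± 0.119 and Prox1 at -0.23 ± 0.134. The second tested probe of Trpc6 had the opposite sign, at 0.15 ± 0.126. For the pyramidal cells of CA1 and CA3, which border the DG, 9 of 10 genes were tested with 0 past the threshold, a median of -0.13 and summed signals of 9060 to 10327 in saline and 7722 to 8942 in KA-SE. Of these 9 genes, 6 had values below 0 and 3 above, from -0.40 for Mpped1 to 0.20 for Man1a. The others among the 4 with the smallest p were Fibcd1 (-0.25), Wfs1 (-0.39) and Ccn3 (-0.24), while Iyd (0.14) and Bok (0.05) were, like Man1a, above 0. The part of this tissue in the values of the receptor genes was not tested.

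Glial markers also varied with the groups. In the microglia list, 8 of 8 genes had positive changes with a median of 0.59 and 0 past the threshold, and the summed signal ranged from 1825 to 1960 in saline and from 2386 to 3598 in KA-SE. The list averaged 0.32 above saline for KA-SE replicate 1, 0.47 for replicate 2 and 0.98 for replicate 3, so it had its lowest and its highest KA-SE value on the same arrays as Npy. The astrocyte list had a median of 0.36 with 1 of 8 genes past the threshold, Gfap, which rose by 1.89 ± 0.138 on the log2 scale (limma adjusted p = 0.00057). The astrocyte list averaged 0.40, 0.54 and 0.58 above saline on those arrays, the same order as in the microglia list. The summed signal of the astrocyte list was 31054 to 33237 in saline and 43509 to 45210 in KA-SE. The oligodendrocyte and endothelial lists had medians of 0.14 and 0.25 with 0 past the threshold, and summed signals of 49662 to 50627 and 1146 to 1474 in saline against 52280 to 57365 and 1389 to 1848 in KA-SE. Choroid plexus markers differed widely within saline, with the highest mean on replicate 1 and the lowest on replicate 2 and a summed signal from 522 to 31679, against 10498 to 13530 in KA-SE. Npy had its lowest saline value, 10.37, on saline replicate 1 and its highest, 10.62, on saline replicate 2, a difference of 0.25. The part of other cell types in the values of Npy and its receptors was not tested.

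The genes with the pattern most like that of Npy were found by the root mean square difference of log2 signals, each centred on its mean over the 6 arrays, among 11221 other genes. They were Cryba4, a crystallin gene (0.147), Ang, which encodes the ribonuclease angiogenin (0.154), Unc93b1, whose product guides Toll-like receptors to endosomes (0.156), Cela1, an elastase gene (0.168), and Aif1, which encodes the microglial protein IBA1 (0.168). For scale, the root mean square deviation of Npy from its own mean was 0.52, and the median difference over all genes was 0.54. Aif1, for example, had log2 signals of 7.83, 7.82 and 7.89 in saline and of 7.96, 8.38 and 8.95 in KA-SE. In each of these 5 genes, as in Npy, KA-SE replicate 1 was the lowest and KA-SE replicate 3 the highest of the KA-SE arrays, and none passed the threshold (limma adjusted p = 0.102 to 0.435). The genes were picked for this likeness, over 6 arrays that include the difference between the groups.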

How the data were processed

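Total RNA from right DG tissue was measured on Illumina MouseWG-6 beadchips, with each mouse on its own array. The authors read the arrays in GenomeStudio and deposited the non-normalized intensity of every probe on the linear scale, with its detection p-value. A second table deposited by the authors holds a score for each probe, obtained after they background-corrected, transformed and normalized the data, with a log base and offset that remain unknown. It served as an alternative. Software versions: not given in the sources used here.

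Background correction (normexp, offset 16, with negative controls deduced from detection p-values), quantile normalization and log2 transformation were done with neqc (limma 3.58.1, R 4.3.3). A probe was tested if its detection p-value was below 0.05 on every array of 1 group or both, which held for 21226 of 45281, by limma's moderated test (two-sided, prior degrees of freedom 6.40) with Benjamini-Hochberg adjustment over all of them and a threshold of 0.05. The SE is the moderated one. The fit was tested on simulated data. Groups came from the sample titles, and where names of KA-SE columns among the raw intensities carried an extra digit, the last number was read as the replicate. Values measure the spread between mice, and slide and scan time were not used here.

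Gene names came from the platform annotation and were brought up to date with RefSeq (GRCm38.p6) by Entrez identifier. Of 45281 probes, 34885 had 1 gene, 18 several and 10378 none listed. Where a gene had several tested probes, the one with the highest mean was used. Summed signals add the normalized signals of a list on the linear scale, so its brightest genes weigh most. The 12 lists held 128 symbols from general knowledge, of which 123 were matched and 108 tested. Members and lists were chosen with earlier results of these data known. The text names every member probe, list genes past the threshold or otherwise up to 4 with the smallest p, and the 5 genes most like Npy. Dpp4, Gad1, Gad2 and the potassium and calcium channel genes were named in addition, after their values were seen, for their known roles. As the annotation gives no genome build, probe positions are not given.

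Alternatives covered background correction, normalization, the source of the values, the detection filter, the variance prior, array weights, a replicate block, the mean of a gene's probes and omission of each array.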

Additional observations from a re-analysis of the deposited data

How the results depend on the processing

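The log2 change of Npy stayed positive and those of Npy1r, Npy2r and Npy5r stayed negative under all alternatives run, including median scaling, where the median of all tested probes was -0.10 and the changes relative to it were 0.75, -0.61, -0.19 and -0.25. Npy passed the threshold in 1 of 16 alternatives on the log2 scale, without KA-SE replicate 1, and the receptor genes in 0 of theirs. Adjusted p-values ranged from 0.0292 to 0.763 for Npy, 0.106 to 0.695 for Npy1r, 0.583 to 0.999 for Npy2r and 0.417 to 1.00 for Npy5r. With 1 array left out, changes ranged from 0.49 to 1.10 for Npy, -0.76 to -0.43 for Npy1r, -0.34 to -0.02 for Npy2r and -0.34 to -0.20 for Npy5r, and the difference of effects from 0.92 to 1.85 for Npy minus Npy1r, 0.67 to 1.43 for Npy minus Npy2r and 0.73 to 1.41 for Npy minus Npy5r.

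The number of probes past the threshold was less stable than these values. Against 49, it was 78 with median scaling, 9 with the processed table, 76 with a variance trend, 81 with a robust trend, 89 with array weights and between 4 and 85 with 1 array left out. With no filter on detection, limma called 0 of 45281 probes, of which 3000 had an unadjusted p below 0.05. The cause of these differences was not tested. Replicate numbers name separate mice, so same-numbered arrays were not taken as pairs. The deviations of same-numbered arrays correlated at 0.02, 0.18 and 0.24 across probes. For arrays with different numbers, the correlations ranged from -0.21 to 0.05. Deviations were taken from the group mean and cancel within each group for every probe, so these correlations are not independent of each other. Whether same-numbered arrays shared a batch was not tested. With the replicate block, 32 probes passed, and the adjusted p was 0.209 for Npy, 0.274 for Npy1r, 0.785 for Npy2r and 0.595 for Npy5r, which changed no call of a member.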
